A study of Amphimedon queenslandica with 144 samples.

Results

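Of the 144 single animals of the demosponge Amphimedon queenslandica that were sequenced, 13 had settled on pieces of the articulated coralline alga Amphiroa fragilissima, and these are compared here by the larval age at which the alga was offered. In 7 of them induction began 8 h after the larva had left its mother sponge, and they were collected at an age of 10 h. In the other 6 induction began at 5 h, and they were collected at an age of 7 h. Each larva had been alone in a well with 1 piece of alga in filtered seawater, and contact with the cue lasted 2 h in both groups, so the groups differ in the age at induction and in the age at collection together. Settled post-larvae were animals that had attached and stayed attached when the plate was swirled. No strain or genotype is given in the labels. Both groups were taken by the study's own labels and column names, not by any measured value. All 13 libraries carry the library label C. The animals set beside them were 14 settled on the crustose alga Mesophyllum (7 at 8 h and 7 at 5 h), and 18 larvae swimming with Amphiroa, 18 swimming with Mesophyllum and 18 swimming in seawater, each 9 at 8 h and 9 at 5 h.

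Amphimedon queenslandica broods its embryos and releases ciliated larvae that swim for hours before they respond to a cue to settle. Newly released larvae do not yet settle, and the ability to do so, called competence, is gained with age. Coralline algae are known cues for this species as for many reef invertebrates. On settlement the larva attaches, loses its cilia and begins to rebuild its body into a juvenile sponge. The comparison addresses whether larvae that settle at a later age carry other transcripts than larvae that settle at an earlier one.

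Transcripts were counted per feature, a feature being an Aqu2.1 gene model or one of 3395 features whose identifiers begin with TCONS. The identifiers are paired with no gene names in the files used here, so features are named by identifier and no function is given. Total counts ran from 874227 to 2429333 per animal in the 8 h group and from 1029943 to 2321236 in the 5 h group, and the number of features with at least 1 count from 16261 to 19889 at 8 h and from 16533 to 19243 at 5 h. Neither mean total counts (2-sided exact permutation test over animals, p = 0.480) nor mean features detected (p = 0.688) differed beyond the spread between animals. No columns were identical, and any pair of the 13 differed by far more than counting error. The last number in the sample label, whose meaning the labels do not give, is 30 or more in all 8 h animals and in 2 of the 5 h animals, replicates 1 and 4, and 9 to 15 in the other 4. Levels are given as CPM, counts scaled to a common library size after trimmed-mean normalization.

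The label of settled animal was checked with a settlement score, the mean log2 CPM of 1585 features raised minus that of 789 features lowered in animals settled on Mesophyllum against larvae swimming with Mesophyllum (19.8% of features tested there were called by edgeR, at an adjusted p below 0.05). None of the 13 animals took part in choosing those features. Of the 13 settled animals 11 scored from 1.55 to 3.83, above all 18 larvae swimming with Amphiroa, which scored from 0.681 to 1.37. The other 2 settled animals, 8 h replicate 6 at 1.04 and 5 h replicate 5 at 1.05, lay below the highest of these larvae, a single one at 1.37, and above the other 17, which reached 0.958. The low-scoring 5 h animal was above all 9 larvae swimming with Amphiroa at 5 h, of which the highest scored 0.880. Those 2 attached animals stand nearer to the swimming larvae than to the other settled ones by this measure, and the calls, scores, lists and interactions are therefore also given without them.

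How far settlement had gone was not shown to depend on induction time. The 8 h animals scored 2.96 ± 0.97 and the 5 h animals 2.67 ± 1.13 (mean ± SD, n = 7 and n = 6), a difference of 0.30 with a 95% interval from -0.99 to 1.56 (2-sided exact permutation test over animals, p = 0.626). In the 8 h group the lowest score was 1.04, the median 3.15 and the highest 3.73. In the 5 h group they were 1.05, 3.03 and 3.83. Both groups covered nearly the same range, and a difference as large as 1 log2 unit lies within the interval. Without the 2 low-scoring animals the means were 3.29 ± 0.52 at 8 h and 2.99 ± 0.90 at 5 h (n = 6 and n = 5, exact permutation p = 0.543). The animals of one induction time were not shown to be more uneven than those of the other: the mean absolute deviation from the group median was 0.64 at 8 h and 0.88 at 5 h (exact permutation p = 0.545).

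A larval age score was built in the same way from seawater larvae, as the mean log2 CPM of 792 features raised minus that of 799 features lowered at an age of 10 h against 3.5 h (13.5% of features tested there were called by edgeR). It was higher in the animals settled after induction at 8 h, at -1.004 ± 0.258, than after induction at 5 h, at -1.41 ± 0.243 (SD, n = 7 and n = 6). The difference was 0.41, with a 95% interval from 0.11 to 0.71 (2-sided exact permutation test over animals, p = 0.0140). The lowest, median and highest scores were -1.31, -1.13 and -0.55 at 8 h and -1.78, -1.39 and -1.12 at 5 h. The groups overlapped, with 4 of the 8 h animals at or below the highest 5 h animal. Leaving out each animal in turn gave differences from 0.33 to 0.47 and exact permutation p from 0.00758 to 0.0366, and without both low-scoring animals the difference was 0.37 (p = 0.0281). With features that also belong to the settlement score left out, it was 0.42 (exact permutation p = 0.0181).

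The order of the age score followed induction time in the animals around them as well. Larvae swimming with Amphiroa averaged -0.87 ± 0.21 at 8 h and -1.32 ± 0.24 at 5 h (SD, n = 9 each). Animals settled on Mesophyllum averaged -1.02 ± 0.23 at 8 h and -1.23 ± 0.21 at 5 h (SD, n = 7 each). These values stand beside the 13 animals as a description. In the 13 animals, depth and the age score moved together in part of the 8 h group and at the low end of the 5 h group. Replicate 1 had the fewest counts of its group and the lowest age score, -1.31 at 8 h and -1.78 at 5 h. The deepest 8 h animals, replicates 5, 6 and 7 with 2429333, 2394777 and 2280444 counts, scored highest, at -0.81, -0.55 and -0.93. Replicate 4 of that group, nearly as deep as replicate 7 with 2269245 counts, scored only -1.149. Replicates 2 and 3, with 1344110 and 1431338 counts, were close to it at -1.146 and -1.132. The deepest 5 h animal, replicate 6 with 2321236 counts, scored -1.56, lower than all 5 h animals but replicate 1. The part of depth in the score was not tested. The difference was 0.46 without 8 h replicate 1 (exact permutation p = 0.00866) and 0.33 without 5 h replicate 1 (p = 0.0366). Leaving out 1 animal keeps the depth differences among the others in place. The 5 h animals with label numbers of 30 or more scored -1.78 and -1.12, and the other 4 from -1.56 to -1.23.

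**Figure D1:**
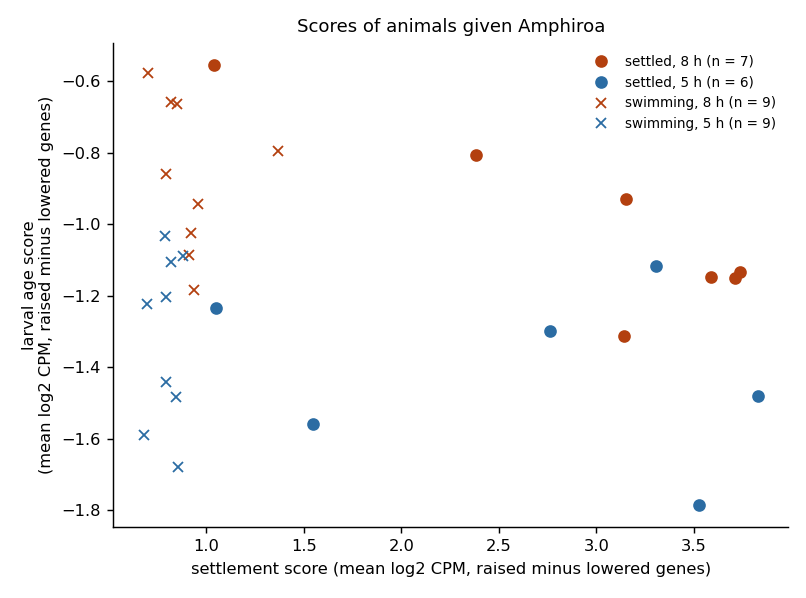
Settlement score (x axis) and larval age score (y axis), both in mean log2 CPM of raised minus lowered features, for the 13 animals settled on Amphiroa (filled circles) and the 18 larvae swimming with Amphiroa (crosses), induced at 8 h (red) or 5 h (blue). One settled animal of each induction time lies near the crosses on the x axis, above all but 1 of them, and the settled 8 h animals average -1.004 on the y axis against -1.41 for the settled 5 h animals.

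Feature by feature, few differences between the induction times exceeded the spread between animals. Of 9183 features tested, which held 97.5% of all counts, 2 (0.0218%) were called changed at an adjusted p below 0.05 by the quasi-likelihood F test of edgeR, both lower at 8 h. The count called higher was 0 (0%). At an unadjusted p below 0.05 there were 509 features (5.54%), of which 193 (2.1%) were higher and 316 (3.44%) lower at 8 h. DESeq2 on the same animals called 64 features (0.697%), 23 higher (0.25%) and 41 lower (0.446%), and the 2 called by edgeR were among them. The median log2 fold change over all features was -0.00023 and the median size of a log2 fold change was 0.25, against a median SE of 0.37. At least 2-fold differences were estimated for 488 features and at least 4-fold ones for 53. In whole animals, fewer cells of a type and less RNA per cell cannot be told apart.

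The called feature with the larger change, Aqu2.1.37571_001, was at 291 ± 82.9 CPM in the 8 h animals and 1319 ± 376 CPM in the 5 h animals (SD, n = 7 and n = 6). Its lowest, median and highest levels were 189, 288 and 436 CPM at 8 h and 722, 1337 and 1803 CPM at 5 h. Every 8 h animal thus lay below every 5 h animal, the low-scoring ones included. The lowest of the 5 h animals was the low-scoring one, replicate 5. The log2 fold change was -2.20 ± 0.25 (SE; edgeR adjusted p = 0.00288). The feature was called without each of the 13 animals in turn (highest edgeR adjusted p = 0.0152), and in the animals with label numbers of 30 or more alone the log2 fold change was -2.27 (edgeR adjusted p = 0.0490). Those animals gave 3 calls in all, of which this feature alone was among the 2 called in the 13 animals, and the other 3 named features had an edgeR adjusted p of 0.9999 there.

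In larvae swimming with Amphiroa its mean level was lower at each later induction, at 3091, 2350.2, 861 and 495 CPM after induction at 1.5, 3, 5 and 8 h (n = 9 each). Larvae taken at an age of 0.5 h, before any cue, were at 1987 CPM. In seawater larvae it was lower at 10 h than at 3.5 h, by a log2 fold change of -2.53 ± 0.15 (edgeR adjusted p = 2.76e-14). The 8 h against 5 h log2 fold change was -1.15 in animals settled on Mesophyllum (edgeR adjusted p = 0.132), -0.72 in larvae swimming with Amphiroa (adjusted p = 0.0437), -1.11 in larvae swimming with Mesophyllum (adjusted p = 0.0227) and -0.63 in seawater larvae (adjusted p = 0.263). The sign was the same in all 4. In the 3 swimming comparisons 51 (0.497%), 19 (0.186%) and 9 (0.0885%) of the features tested were called, in that order. The 8 h animals settled on Amphiroa had the lowest mean of the 17 groups in the series. Next were larvae swimming with Mesophyllum at 8 h, at 435 ± 105 CPM (SD, n = 9), with ranges that overlap. Those larvae had a median of 348 CPM in library C (n = 5) and 503 CPM in T (n = 4). The settled 8 h animals, all in C, had a median of 288 CPM.

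The other called feature, Aqu2.1.43424_001, was at 925 ± 223 CPM in 8 h animals and 2172 ± 185 CPM in 5 h animals (SD, n = 7 and n = 6). The lowest, median and highest levels were 645, 946 and 1174 CPM at 8 h and 1903, 2157 and 2398 CPM at 5 h, again without overlap. The log2 fold change was -1.24 ± 0.19 (SE; edgeR adjusted p = 0.0476). The call was close to the threshold and was lost without 12 of the 13 animals, each left out alone, with a highest edgeR adjusted p of 0.172 and estimates from -1.17 to -1.30 among them. It was lost without the 2 low-scoring animals too (log2 fold change -1.19, edgeR adjusted p = 0.144). In one 5 h animal its count was 4695, more than the random identifiers of 1 sequencing lane can tell apart, and counts that high may be compressed, although how identifiers were counted is not given in the labels. In seawater larvae it was lower at 10 h than at 3.5 h, by a log2 fold change of -0.78 ± 0.14 (edgeR adjusted p = 0.0003). Among the other animals the 8 h against 5 h log2 fold changes were smaller: -0.36 settled on Mesophyllum, -0.23 swimming with Amphiroa, -0.50 swimming with Mesophyllum and -0.28 in seawater, none called. The -0.50 differs by library: in C the medians were 999 CPM at 8 h and 1640.0 CPM at 5 h (n = 5 and n = 6), and in T 1598 CPM at 8 h and 1466 CPM at 5 h (n = 4 and n = 3).

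No feature was called higher at 8 h, and the pair with the smallest p in that direction is given as not called. Aqu2.1.27480_001 was at 585 ± 218 CPM at 8 h and 176 ± 31.4 CPM at 5 h (SD, n = 7 and n = 6), with 219.6 to 860.5 CPM (median 570.3) against 126 to 209 CPM (median 187). The log2 fold change was 1.72 ± 0.29 (SE; edgeR adjusted p = 0.0677). The groups did not overlap, but the lowest 8 h animal, replicate 2 at 219.6 CPM, lay just above the highest 5 h animal at 209 CPM. Without that animal the adjusted p in edgeR was 0.00697. The 8 h against 5 h log2 fold change was 1.05 on Mesophyllum, 0.47 in larvae swimming with Amphiroa, 0.53 swimming with Mesophyllum and -0.28 in seawater, none of them called. Between 10 h and 3.5 h in seawater larvae it was 0.24 (edgeR adjusted p = 0.428).

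The second, Aqu2.1.28458_001, was at 68.6 ± 30.5 CPM at 8 h and 16.9 ± 6.10 CPM at 5 h (SD, n = 7 and n = 6), with 37.5 to 118 CPM (median 63.8) against 9.03 to 25.2 CPM (median 17.1). Again no animals overlapped. The log2 fold change was 2.00 ± 0.34 (SE; edgeR adjusted p = 0.0677), and 2.11 without 8 h replicate 2 (edgeR adjusted p = 0.0466). The same difference was estimated at 1.31 on Mesophyllum, 1.16 in larvae swimming with Amphiroa, 0.83 swimming with Mesophyllum and 0.28 in seawater, none of them called. Between 10 h and 3.5 h in seawater it was called higher, at 1.67 ± 0.43 (edgeR adjusted p = 0.00877).

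**Figure D2:**
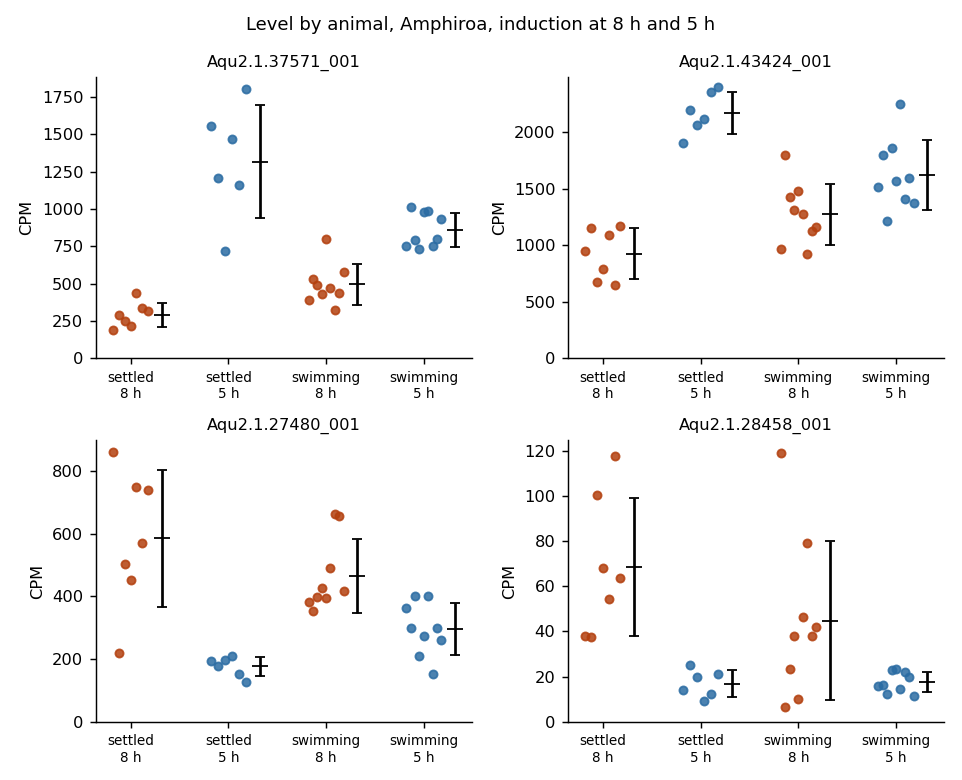
CPM (y axes, linear from 0) of the 4 named features in each animal given Amphiroa, settled or swimming, induced at 8 h (red) or 5 h (blue), with mean and SD as bars. In settled animals the 8 h and 5 h values of all 4 do not overlap; Aqu2.1.37571_001 averages 291 CPM at 8 h and 1319 CPM at 5 h.

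Groups that did not overlap were rare over the whole table. In 7 features (0.0762%) every 8 h animal was above every 5 h animal, with log2 fold changes from 0.65 to 2.00 and a median of 1.72. In 19 features (0.207%) every 8 h animal was below every 5 h animal, with log2 fold changes from -0.41 to -2.32 and a median of -0.85. The plot of fold change against level shows the 2 called features at high levels and many larger but less certain estimates at low levels.

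**Figure D3:**
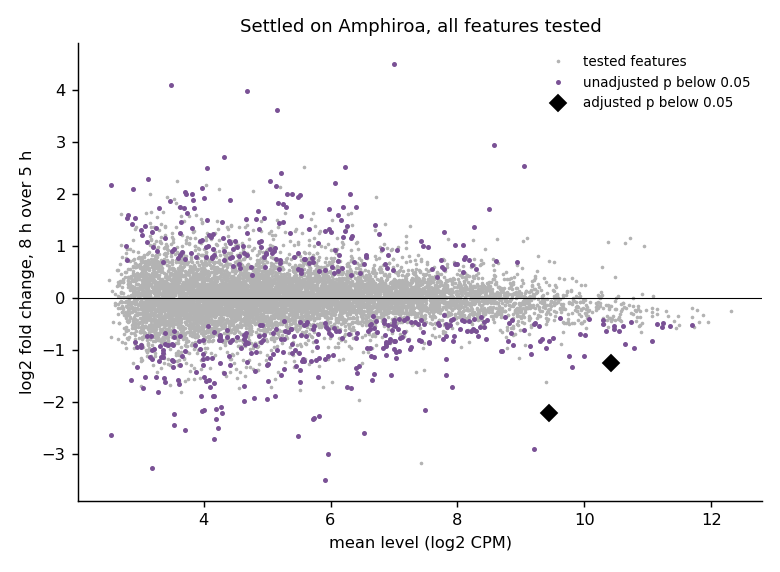
Log2 fold change, 8 h over 5 h (y axis), against mean level in log2 CPM (x axis) for the 9183 features tested in animals settled on Amphiroa. Grey points are all features, purple points the 509 with an unadjusted p below 0.05, and black diamonds the 2 called, which lie below 0 at log2 CPM above 9.

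Features that are lowered with age in seawater larvae made up 108 of the 316 features that were lower at 8 h at an unadjusted p below 0.05. Of the 799 features lowered with age in seawater larvae, 731 were tested here. Of these, 108 (14.8%) were lower and 0 higher at an unadjusted p below 0.05, beside 316 (3.44%) lower and 193 (2.1%) higher over all features. Both called features belong to this list. Its median log2 fold change was -0.21, and 23.9% of its features had a positive one, beside a median of -0.00023 and 50.0% over all features. Of the 792 features raised with age, 718 were tested, of which 40 were higher and 3 lower at an unadjusted p below 0.05. The median in that list was 0.13, and 66.4% of its features had a positive fold change. With the 2 low-scoring animals left out, the list lowered with age had 82 lower and 0 higher of 729 tested (11.2%). The list raised with age had 39 higher and 6 lower of 703 (6.40%). Over all features 460 of 8972 passed an unadjusted p of 0.05 in that fit.

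The features with the strongest evidence held a larger share of the age list still. Of the 35 with an unadjusted p below 0.001, 11 were higher and 24 lower at 8 h. The lower ones included 18 features lowered with age in seawater larvae, and the higher ones 3 features raised with age. Features lowered with age made up 51.4% of those 35, against 7.96% of all features tested. Features raised with age made up 8.57% of the 35 and 7.82% of all features tested, which is near the background. Of the 26 features whose groups did not overlap, 14 were lowered with age, all lower at 8 h, and 4 were raised with age, all higher at 8 h. Among the 64 called by DESeq2 there were 24 lowered with age, again all lower at 8 h. The seawater larvae shared no animal with the 13, so the lists were chosen on other animals.

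Among features that change at settlement, the share past an unadjusted p of 0.05 was near or below that of all features, although signs leaned. Of the 1585 features raised at settlement on Mesophyllum 1550 were tested, of which 26 were higher and 21 lower at an unadjusted p below 0.05, with a median log2 fold change of 0.07. Of the 789 features lowered at settlement 591 were tested, of which 6 were higher and 25 lower, with a median of -0.15. The share of features past an unadjusted p of 0.05 was 3.03% among those raised and 5.25% among those lowered, beside 5.54% over all features. Signs leaned with the lists, with 60.6% of the raised and 31.5% of the lowered features positive, beside 50.0% over all features. Aqu2.1.37571_001 is in the raised list, with a log2 fold change of 0.55 at settlement on Mesophyllum (edgeR adjusted p = 0.0164). Without the 2 low-scoring animals 33 of 1556 raised features tested were higher and 34 lower (4.31%). Of 561 lowered features tested, 4 were higher and 25 lower (5.17%). Over all features 460 of 8972 passed an unadjusted p of 0.05 in that fit. The settlement and age lists share 468 features, of 2374 and 1591.

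The remaining lists gave shares near or below that of all features, apart from 2. Larvae swimming with Amphiroa differed from seawater larvae in 9.89% of features tested (edgeR adjusted p below 0.05). Of the 602 higher with Amphiroa 518 were tested, with 2 higher and 14 lower at an unadjusted p below 0.05. Of the 662 lower 637 were tested, with 12 higher and 13 lower. Of 3395 TCONS features 128 were tested, with 1 higher and 5 lower. The first exception was a list of 124 features at 0 counts in some swimming larvae and at 10 CPM or more in others. At least 25% of the larvae were in each state. Of these features 57 were tested, with 2 higher and 4 lower (10.5%). That share rests on only 6 features and was 8.77% without the 2 low-scoring animals. The median log2 fold change of the list was -0.026, and 49.1% of its features had a positive one. The second exception was the list of 183 features with any count in the series above the number of identifiers of 1 lane. Of these 182 were tested, 1 was higher and 31 lower (17.6% in all), and the median log2 fold change was -0.25. Such features held from 19.1% to 25.4% of an animal's counts at 8 h and from 23.1% to 28.4% at 5 h. Both called features belong to this list, and the part of any count compression in their fold changes was not tested beyond a correction that assumes shared identifiers, which gave log2 fold changes of -2.34 for Aqu2.1.37571_001 and -1.43 for Aqu2.1.43424_001.

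Most of the variation among the 13 animals did not run along induction time. The first principal component of log2 CPM held 28.2% of the variance and the second 10.3%, whereas 8.38% lay between the induction times, close to the 8.33% that a contrast between 2 groups of 13 animals holds when it is drawn without regard to expression. Without the 2 low-scoring animals it was 9.74%, beside 10.0% for such a contrast among 11 animals. The 2 low-scoring animals had the lowest coordinates on the first component, -69.6 for 8 h replicate 6 and -75.4 for 5 h replicate 5. Correlations of log2 CPM between animals had a median of 0.817 among 8 h animals, 0.791 among 5 h animals and 0.806 between the induction times. Animals of different induction times thus resembled each other about as much as animals of the same one.

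The comparison at the same ages in animals settled on Mesophyllum asks whether the alga matters. There 0 of 9554 features (0%) were called by edgeR, while 1489 (15.6%) had an unadjusted p below 0.05, and mean settlement scores were 3.08 ± 0.87 at 8 h and 2.00 ± 1.07 at 5 h (SD, n = 7 each). Of the 509 features with an unadjusted p below 0.05 on Amphiroa, 489 were also tested on Mesophyllum, and 403 of these (82.4%) had the same sign, beside 62.9% of all features tested on both. Of the 35 features with an unadjusted p below 0.001 on Amphiroa, 34 had the same sign in animals settled on Mesophyllum. The same sign was found for 31 (88.6%) in larvae swimming with Amphiroa, beside 57.0% of all features tested in both. It was found for 30 (85.7%) in larvae swimming with Mesophyllum, beside 55.2%. In seawater larvae it was found for 18 (51.4%), beside 52.4%, which is near the background. Without the 2 low-scoring animals the counts of equal sign on Mesophyllum were 348 of 445 (78.2%) and 20 of 20, beside 62.5% of all features.

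**Figure D4:**
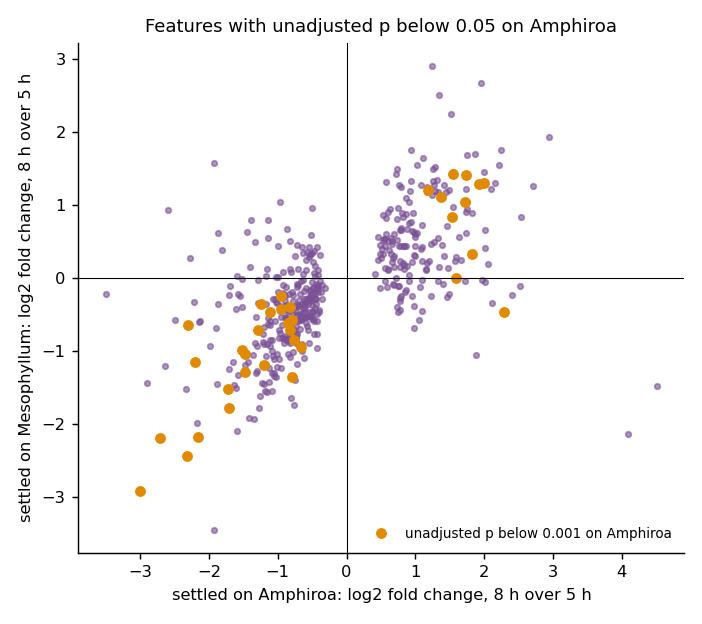
Log2 fold change, 8 h over 5 h, in animals settled on Amphiroa (x axis) and in animals settled on Mesophyllum (y axis), for the features with an unadjusted p below 0.05 on Amphiroa that were tested on both. Orange points have an unadjusted p below 0.001 on Amphiroa. Of the 489 points 403 lie in the quadrants of equal sign.

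A difference between the algae was tested directly as an interaction in the 27 settled animals. No feature of 11475 was called by edgeR (0 called, 0%), 606 (5.28%) passed an unadjusted p of 0.05. DESeq2 called 49, all with a lower 8 h against 5 h fold change on Amphiroa. The edgeR count was also 0 without the 2 low-scoring animals (667 at an unadjusted p below 0.05). For Aqu2.1.37571_001 the 8 h against 5 h log2 fold change was lower on Amphiroa by 1.04 ± 0.38 (edgeR adjusted p = 0.794), which did not pass. The feature with the smallest p and a higher value on Amphiroa, Aqu2.1.35262_001, had a log2 fold change of 1.05 on Amphiroa and -0.58 on Mesophyllum, a difference of 1.64 ± 0.38 (edgeR adjusted p = 0.407, not called). Its levels were 29.2 ± 12.5 CPM at 8 h, where the low-scoring replicate 6 reached 56.0 CPM and the others at most 32.02 CPM, and 13.9 ± 4.47 CPM at 5 h on Amphiroa (SD, n = 7 and n = 6). In the other direction Aqu2.1.23247_001 had log2 fold changes of -0.09 on Amphiroa and 1.03 on Mesophyllum, a difference of -1.12 ± 0.25 (edgeR adjusted p = 0.407, not called). On Amphiroa it was at 1308 ± 249 CPM at 8 h and 1370.1 ± 220.5 CPM at 5 h (SD, n = 7 and n = 6). On Mesophyllum its median at 8 h was 1856 CPM, with all animals in library C (n = 7). At 5 h the Mesophyllum animals were split, with medians of 861 CPM in C (n = 5) and 1646 CPM in T (n = 2).

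Whether settled animals differed between the induction times in the way swimming larvae do was tested as an interaction in the 13 settled animals and the 18 larvae swimming with Amphiroa. Of 12147 features 2 (0.0165%) were called by edgeR, both with a lower 8 h against 5 h fold change in settled animals, and 600 (4.94%) had an unadjusted p below 0.05. The test rests on an additive term for library, since all settled animals are in C and the swimming 5 h larvae are in T and K. With swimming larvae of T and K alone, the same pair was called (edgeR adjusted p = 0.0479 each), but library and stage cannot be told apart in that fit. Without the 2 low-scoring settled animals 3 features were called, this pair included, at -4.50 for Aqu2.1.40667_001 and -1.64 for Aqu2.1.37571_001 (edgeR adjusted p = 0.00174 and 0.00372). DESeq2 called 18 features and a fit of all 144 animals 15, this pair among them in both.

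In animals settled on Amphiroa, Aqu2.1.40667_001 was at 23.3 ± 14.7 CPM at 8 h and 33.8 ± 23.3 CPM at 5 h (SD, n = 7 and n = 6). The lowest, median and highest levels were 5.97, 20.1 and 50.8 CPM at 8 h and 6.84, 25.2 and 69.7 CPM at 5 h. The settled groups overlapped almost entirely, and the log2 fold change was -0.53 ± 0.52 (edgeR adjusted p = 0.999). The highest of the settled 8 h animals was the low-scoring replicate 6, at 50.8 CPM, and the lowest of the settled 5 h animals the low-scoring replicate 5, at 6.84 CPM. In larvae swimming with Amphiroa it was higher at 8 h, at 112 ± 53.1 CPM, than at 5 h, at 9.43 ± 6.31 CPM (SD, n = 9 each). Its log2 fold change there was 3.44 ± 0.42 (SE; edgeR adjusted p = 0.00058). In these larvae the levels were 40.7 to 184 CPM at 8 h (median 116) and 2.79 to 21.5 CPM at 5 h (median 9.45), with no overlap. The difference between the stages, settled minus swimming, was -3.96 ± 0.68 (SE; edgeR adjusted p = 0.0322).

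The same feature was higher at 8 h in larvae swimming with Mesophyllum, at 151 ± 81.2 CPM against 18.03 ± 14.09 CPM at 5 h (SD, n = 9 each; edgeR adjusted p = 0.0178). In animals settled on Mesophyllum it was at 42.6 ± 25.2 CPM at 8 h and 27.4 ± 17.9 CPM at 5 h (SD, n = 7 each; edgeR adjusted p = 0.400). In seawater larvae it was at 114 ± 67.3 CPM at 8 h and 45.1 ± 65.4 CPM at 5 h (SD, n = 9 each; edgeR adjusted p = 0.617), and it was called higher at 10 h than at 3.5 h, by a log2 fold change of 4.20 ± 0.59 (edgeR adjusted p = 8.02e-06). Among the settled animals of either alga no group mean exceeded 42.6 CPM.

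**Figure D5:**
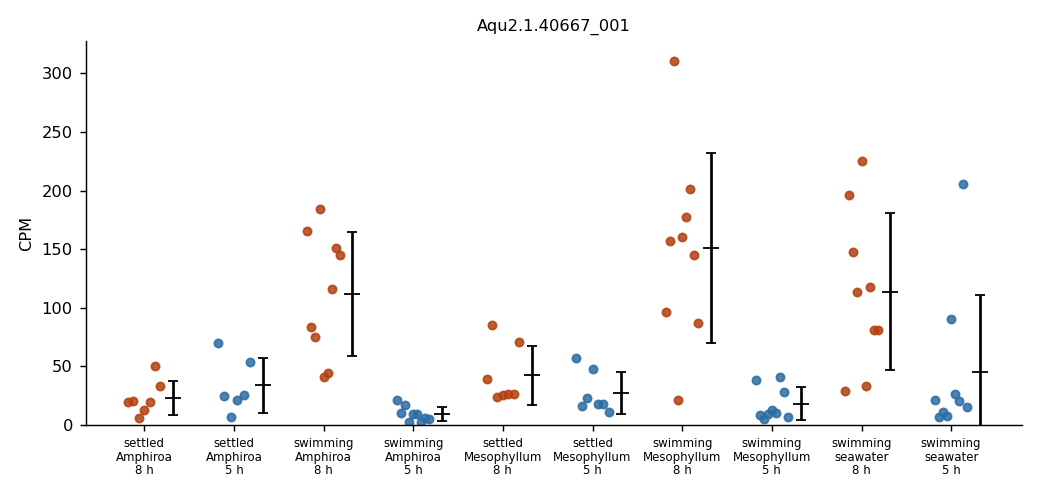
CPM of Aqu2.1.40667_001 (y axis, linear from 0) in each animal by stage, cue and induction time, with mean and SD as bars. Animals settled on Amphiroa average 23.3 CPM at 8 h and 33.8 CPM at 5 h, and larvae swimming at 8 h average 112, 151 and 114 CPM with Amphiroa, with Mesophyllum and in seawater.

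The second feature of that pair was Aqu2.1.37571_001, whose 8 h against 5 h log2 fold change was -2.20 in settled animals and -0.72 in swimming larvae, a difference of -1.47 ± 0.27 (edgeR adjusted p = 0.0407). In larvae swimming with Amphiroa it was at 495 ± 135 CPM at 8 h and 861 ± 116 CPM at 5 h (SD, n = 9 each), so that settled animals were lower than swimming larvae on average at 8 h and higher at 5 h. In the opposite direction the feature with the smallest p, Aqu2.1.36903_001, was not called, with a difference of 3.59 ± 0.85 (edgeR adjusted p = 0.286). Its settled 8 h levels ran from 22.7 to 420 CPM with a median of 34.95 CPM. Its settled 5 h levels ran from 14.8 to 43.7 CPM with a median of 19.7 CPM. The settled 8 h mean of 114.5 CPM lay above all 8 h animals but replicate 7 at 420 CPM and the low-scoring replicate 6 at 194 CPM. The others were at 22.7 to 64.6 CPM.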

How the data were processed

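Transcript counts of 144 single animals were used, 13 of them settled on Amphiroa. CEL-Seq2 libraries were used, per the labels, and the public CEL-Seq pipeline assigned reads to Aqu2.1 gene models. Which aligner and genome build it ran with is not given in the sources used here. The authors deposited whole-number counts for 47411 features (44016 gene models), with both lanes added and spike-in and bacterial rows removed, per the name of the deposited table. The highest count was 8192, equal to 2 lanes of 4096 identifiers of 6 bases. Counts were taken as identifiers on that ground, so that high ones may be compressed; the labels do not say how identifiers were counted. A table of 25955 reference genes was searched, and 0 identifiers matched.

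Counts of the 13 animals were tested with edgeR 4.0.16 (robust quasi-likelihood F test, low-count filter by group, TMM factors from 0.807 to 1.27) in R 4.3.3, with Benjamini-Hochberg adjustment over all features tested and a threshold of 0.05. Fits to animals of several libraries added a term for library. These were the interactions, the 8 h against 5 h comparisons in the other animals, and the fits that chose the settlement, age and cue lists. DESeq2 1.42.0 and limma 3.58.1 gave alternatives. Scores used log2 CPM with a prior count of 2 and 2-sided exact permutation tests over all 1716 divisions of the animals. Intervals of the scores hold the shifts that this test does not reject. Fits were tested on simulated data before use.

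A replicate is 1 animal. The labels do not tie animals to mothers or days. The last number in the sample label, whose meaning the labels do not give, is 30 or 31 for 2 of the 5 h animals, 9 to 15 for the other 4, and 32 to 38 at 8 h. The members and lists were chosen with earlier results of these data known. Named features had a mean of at least 10 CPM: up to 2 per direction, first those called also without each animal, by size of change, then those called, then those with the smallest p. Each interaction named 1 per direction without the leave-one-out condition.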

Additional observations from a re-analysis of the deposited data

Results flagged for a closer look

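The 8 h against 5 h difference of Aqu2.1.40667_001 was not the same in settled and swimming animals given Amphiroa, with a tested difference of -3.96 ± 0.68 in log2 fold change (edgeR adjusted p = 0.0322). All 9 larvae swimming with Amphiroa at 8 h were above all 9 at 5 h, and in settled animals the groups overlapped. The 8 h against 5 h difference of Aqu2.1.37571_001 was also not the same, by -1.47 ± 0.27 (edgeR adjusted p = 0.0407), with the same sign at both stages. Library is not balanced over these groups, and its part beyond an additive term cannot be told apart from stage.

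Single animals were looked for that lay far from the rest of their group, in 43 groups of values. In 4 groups 1 animal did so, and chance flags about 5% of such groups. One larva swimming with Amphiroa at 8 h had a settlement score of 1.37, the next highest of the 18 being 0.958. Replicate 6 of the 8 h animals settled on Amphiroa had 56.0 CPM of Aqu2.1.35262_001, against 20.91 to 32.02 CPM in the other 6. Replicate 7 of the same group had 420 CPM of Aqu2.1.36903_001, against 22.7 to 194 CPM in the others. One seawater larva at 5 h had 206 CPM of Aqu2.1.40667_001, in a group with a median of 20.9 CPM. The settlement score of the low-scoring 8 h animal did not lie far enough from the other 6 to be picked out this way.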

How the results depend on the processing

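The count of 2 features called was 64 with DESeq2, 6 without the low-count filter, 11 with all 27 settled animals, 122 with all 144 animals, 1 with total counts as a covariate, 10 with the settlement score as a covariate, and 1 without both low-scoring animals. It ran from 1 to 5 without each animal in turn, with 5 without 8 h replicate 2. Another scaling, a minimum of 10 CPM, limma-voom with animal weights and a correction for shared identifiers kept the same 2 features, and 3 were called in the animals with label numbers of 30 or more, 1 of them among the 2. Aqu2.1.37571_001 was called under 25 of 27 alternatives and Aqu2.1.43424_001 under 10. Both features higher at 8 h were called under 6 of 27. All 4 kept their direction under all 27. DESeq2 and the fit of 144 animals shared 36 calls. The latter fit shares its spread with swimming larvae, and the part of that in its 122 calls was not tested. Replicate numbers were not taken as pairs: of 5 shared numbers, 4 had a correlation of deviations over 0.1 and 1 did not (range -0.035 to 0.353), and 1 of 5 animals correlated best with its own number. A fit with the replicate block called 0 (455 at an unadjusted p below 0.05), and the same 10 animals without the block also 0 (417). The count by alga was 49 with DESeq2, all lower on Amphiroa, and the count by stage 18 with DESeq2 and 15 with all 144 animals. The cause of these shifts was not tested, except that the block and the label-number fits use fewer animals. Without each animal in turn, the settlement score difference ran from -0.029 to 0.616, that of its spread from -0.492 to 0.0297, that of features detected from -39.2 to 626, and that of total counts from 93616 to 380817. With 7 and 6 animals and a median SE of 0.37, most differences could not be told from 0, also at 2-fold and above. Estimates reached at least 2-fold for 488 features and at least 4-fold for 53, while 2 features were called. The small number of calls therefore does not show that large differences are absent.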
